A study of Mus musculus with 2 samples.

Results

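Bidirectional promoters are stretches of DNA from which a pair of neighbouring genes is transcribed in opposite directions, and the open regions that stand over them were described in the mouse erythroid line G1E-ER4. A region belonged to the group where its strongest summit lay within 1 kb of start sites of 2 different protein-coding genes on opposite strands that point away from each other. Of 20080 open regions, 9497 had a summit within 1 kb of any protein-coding start site and are called promoter regions, and 1044 of these were bidirectional. They made up 10.99% of the promoter regions (95% Wilson interval 10.4 to 11.6), and the other 8453 promoter regions were the comparison. In the lists of the 2 libraries alone the share was 11.74% and 11.75%. Both lie above that interval, which covers counting error only. The signal was not used to choose the members, but a region had to be open to be counted.

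Many mammalian promoters give a long transcript in 1 direction and short, unstable transcripts in the other. At a divergent gene pair both directions lead into a gene, and the genes of many such pairs serve functions that every dividing cell needs, such as DNA repair, mitochondrial translation and the packing of DNA by histones. Transposase-accessible chromatin sequencing (ATAC-seq) marks DNA that is not wrapped in nucleosomes, and a start site in use usually lies beside such a stretch.

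The cells were G1E-ER4, a line of C57BL/6J, male, postnatal, erythroid cells in which the lost transcription factor GATA1 is supplied as a fusion to the estrogen receptor's ligand-binding part, so that estradiol sets off maturation towards red cells. All cells had 10 nM 17β-estradiol for 24 h, and each of the 2 libraries, biological replicates 1 and 2, was made from 50000 cells. No untreated group was analysed here, so no value here is a response to estradiol. The labels name the same donor for both libraries and do not say that the cultures were grown apart, so the spread between the libraries is the only replicate error and may be technical.

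The libraries' own lists held 14012 and 15564 regions, and the read depth is unknown. Start sites of all 10 erythroid markers, among them Gata1, Klf1, Tal1 and Slc4a1, had a promoter region in the conservative list, 7 of them in replicate 1 and 8 in replicate 2. Of the markers of other cells, none of the 4 T cell, 4 B cell, 5 myeloid or 3 liver genes had one, against 1 of 4 fibroblast genes (Col1a1) and 2 of 3 megakaryocyte genes (Itga2b and Pf4). In such bulk samples, fewer open cells and less opening in each cell cannot be told apart.

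The DNA between the paired start sites is shown first for the 4 strongest members that have it free of any annotated exon, then for 13 of the 14 DNA repair pairs that meet the same limits. The limits were a distance of 60 to 290 bp between the sites and a call in both libraries, and 320 members met them. The letters are the plus strand of mm10, read from the RefSeq copy of that build, so the gene named first starts just left of the stretch and reads leftwards, and the gene named second starts just right of it. Capitals mark matches to any of 15 short motifs on either strand, and overlapping matches merge into 1 run.
6430550D23Rik/Ergic3 (chr2:156007978-156008044): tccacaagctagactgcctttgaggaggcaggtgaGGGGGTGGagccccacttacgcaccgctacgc
Rnft2/2410131K14Rik (chr5:118245117-118245226): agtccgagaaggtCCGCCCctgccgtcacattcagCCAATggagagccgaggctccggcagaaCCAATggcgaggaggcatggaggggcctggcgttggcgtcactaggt
Nsun6/Arl5b (chr2:15049313-15049394): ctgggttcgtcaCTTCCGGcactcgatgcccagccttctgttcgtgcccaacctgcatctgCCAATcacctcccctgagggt
Dusp12/Gm26620 (chr1:170885005-170885064): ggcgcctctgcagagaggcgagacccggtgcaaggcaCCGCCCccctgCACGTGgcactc
Pinlyp/Xrcc1 (chr7:24546119-24546288): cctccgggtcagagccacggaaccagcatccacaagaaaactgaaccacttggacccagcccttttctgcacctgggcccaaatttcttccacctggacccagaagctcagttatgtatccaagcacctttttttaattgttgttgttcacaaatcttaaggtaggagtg
Mbd4/Ift122 (chr6:115853372-115853469): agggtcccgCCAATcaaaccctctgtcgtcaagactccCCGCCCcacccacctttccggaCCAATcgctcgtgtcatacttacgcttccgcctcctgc
Mospd2/Fancb (chrX:164980376-164980591): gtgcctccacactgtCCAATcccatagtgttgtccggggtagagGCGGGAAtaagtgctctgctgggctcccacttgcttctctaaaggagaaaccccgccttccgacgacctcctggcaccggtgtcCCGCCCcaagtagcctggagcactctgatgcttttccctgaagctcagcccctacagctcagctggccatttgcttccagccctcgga
Toe1/Mutyh (chr4:116807641-116807722): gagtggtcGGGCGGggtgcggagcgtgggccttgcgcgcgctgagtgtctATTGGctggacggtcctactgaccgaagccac
Pms1/Ormdl1 (chr1:53297019-53297094): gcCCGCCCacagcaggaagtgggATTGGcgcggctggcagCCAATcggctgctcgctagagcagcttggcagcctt
Rad51c/Tex14 (chr11:87404955-87405064): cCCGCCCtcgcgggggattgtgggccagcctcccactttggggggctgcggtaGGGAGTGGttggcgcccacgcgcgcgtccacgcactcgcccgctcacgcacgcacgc
Recql/Golt1b (chr6:142387088-142387220): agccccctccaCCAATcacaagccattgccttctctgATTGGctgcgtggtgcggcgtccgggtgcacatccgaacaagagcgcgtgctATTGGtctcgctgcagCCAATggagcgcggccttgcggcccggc
Aimp2/Pms2 (chr5:143909848-143909963): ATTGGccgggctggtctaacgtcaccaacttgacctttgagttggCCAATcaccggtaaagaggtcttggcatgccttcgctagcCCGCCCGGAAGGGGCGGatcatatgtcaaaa
Osgep/Apex1 (chr14:50924894-50924967): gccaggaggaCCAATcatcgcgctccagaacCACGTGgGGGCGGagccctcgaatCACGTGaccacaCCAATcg
Dclre1b/Ap4b1 (chr3:103809445-103809519): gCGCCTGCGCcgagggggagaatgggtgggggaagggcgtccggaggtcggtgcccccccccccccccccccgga
Hscb/Chek2 (chr5:110839778-110839978): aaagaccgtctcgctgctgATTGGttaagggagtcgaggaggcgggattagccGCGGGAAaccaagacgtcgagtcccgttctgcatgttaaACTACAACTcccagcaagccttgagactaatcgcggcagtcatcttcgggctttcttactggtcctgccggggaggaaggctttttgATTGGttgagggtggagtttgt
Zswim9/Lig1 (chr7:13278722-13278825): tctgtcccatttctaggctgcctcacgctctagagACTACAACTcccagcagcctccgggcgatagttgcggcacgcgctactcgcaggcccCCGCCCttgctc
Polh/Xpo5 (chr17:46202646-46202781): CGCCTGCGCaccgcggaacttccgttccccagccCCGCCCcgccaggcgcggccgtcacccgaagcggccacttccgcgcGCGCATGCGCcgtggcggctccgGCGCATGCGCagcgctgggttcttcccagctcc

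Among the 14 repair stretches, CCAAT, the box bound by NF-Y, was present in 9. As many held GGGCGG, the GC box bound by SP factors. Over all 320 stretches the shares were 43.1% for the CCAAT box and 51.3% for the GC box. The stretches of Pms1/Ormdl1, Mbd4/Ift122, Aimp2/Pms2, Osgep/Apex1 and Recql/Golt1b held more than 1 CCAAT box, as did that of Hscb/Chek2, while that of Pinlyp/Xrcc1 held none of the 15 motifs. The stretches of Pinlyp/Xrcc1 and Rad51c/Tex14 lay outside the open region of the pair, whose summit was to 1 side of both sites. A match is only a run of letters and does not show that a factor was bound.

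The paired start sites lay close together. The distance between them had a median of 117 bp (quartiles 64 and 243, range 0 to 1766), and in 727 regions (69.6%) it was at most 200 bp. In 1030 of the 1044 regions it was at most 1 kb. The smallest distances were 0 bp at Nsa2/Gfm2, where a ribosome biogenesis gene and a mitochondrial translation factor gene start at the same base, and 1 bp at Dcun1d3/Lyrm1 and at Bag4/Lsm1. The largest were 1766 bp at Gpr108/Trip10, 1756 bp at Mbd6/Ddit3 and 1293 bp at Map3k12/Tarbp2.

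A single open region usually spanned both start sites. It covered both in 824 regions (78.9%, 76.3 to 81.3), with 91.1% at distances of 0 to 50 bp and 35.2% at over 400 to 1000 bp. The strongest summit lay between the sites in 537 regions (51.4%, 48.4 to 54.5), and in the libraries' own lists the share was 51.1% ± 0.569 (SD, n = 2). The summit lay past the start site of the plus-strand gene in 256 regions and past that of the minus-strand gene in 251. It was nearer to the plus-strand site in 526, nearer to the minus-strand site in 517 and at equal distance in 1. The summit was within 100 bp of the midpoint in 609 regions (58.3%), with a median offset of 2 bp.

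The share of summits between the sites depends on the length of the stretch, since a shorter one leaves less room, and no value expected from length alone was computed. It was 18.9% (13.8 to 25.2) of 180 regions at 0 to 50 bp, 40.5% of 269 at 51 to 100 bp, 64.7% of 278 at over 100 to 200 bp, 64.1% of 195 at over 200 to 400 bp and 69.4% of 108 at over 400 to 1000 bp. The median signal at these distances was 13.6, 12.6, 14.2, 14.3 and 12.6, with no steady trend. In the 14 regions with sites farther apart the rule itself places the summit between them.

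**Figure D1:**
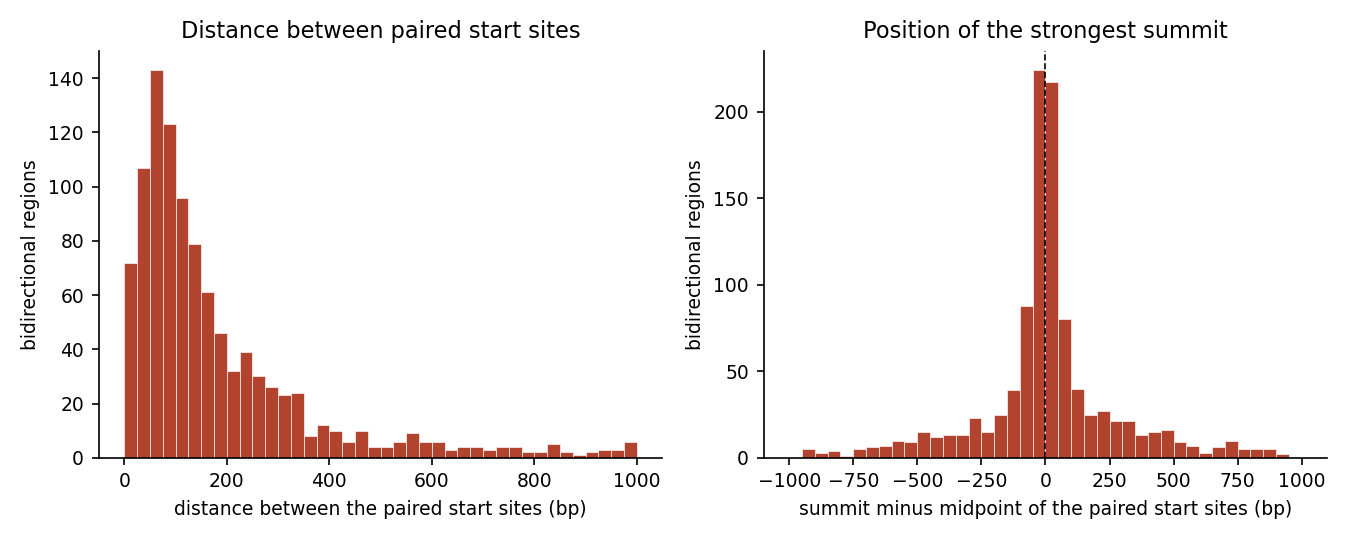
Left, the distance in bp between the paired start sites of bidirectional regions (x axis, bins of 25 bp) and the number of regions (y axis), without the 14 regions over 1 kb. Right, the distance in bp of the strongest summit from the midpoint of the sites, with positive values towards the plus-strand gene. The fullest bin, from 50 to 75 bp, holds 143 regions, and 609 of the 1044 summits lie within 100 bp of the midpoint on either side.

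Several summits in 1 region were more frequent in bidirectional regions, and these regions were wider. Their median width was 691.5 bp, against 592 bp in other promoter regions. In the libraries' own lists the medians were 612 and 622.5 bp for bidirectional regions, against 538 and 544 bp for other promoter regions, a ratio of 1.14 ± 0.00478 (SD, n = 2). More than 1 summit was present in 60.5% of bidirectional and 46.4% of other promoter regions, a difference that was 13.9 percentage points in replicate 1 and 13.8 in replicate 2. Other promoter regions with a divergent start site of a long noncoding RNA, of which there were 697, had a median width of 626 bp and several summits in 51.1%. Bidirectional regions had a median of 4 annotated start sites within 1 kb and other promoter regions had 2, and the part of this in their width was not tested.

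The members near the 1 kb limit were few. The farther paired site stood 999 bp from the summit at Dbf4/Slc25a40 (signal 4.97) and 998 bp at Ushbp1/Babam1 (signal 20.4), just inside the limit. It stood 1006 bp away at Hras/Lrrc56 (signal 5.65), just outside. In all, 46 members had the farther site at 900 bp or more, and 22 regions lay outside by up to 100 bp.

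The members are not independent of each other. They name 925 pairs and 1846 genes by their closest pair, and 105 pairs had 2 regions and 7 had more. Several pairs met the rule in 31 regions. The share of promoter regions that were bidirectional ranged from 6.62% (18 of 272) on chromosome X to 14.4% (68 of 471) on chromosome 17.

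The authors' signal, their value per peak, had a slightly higher median in bidirectional regions. Its median in the conservative list was 13.5 (quartiles 10.3 and 16.6), against 12.9 (9.24 and 16.6) in other promoter regions, a ratio of 1.05. In the libraries' own lists the ratio was 1.01 and 1.02 (1.02 ± 0.00321, SD, n = 2). Among regions with a signal above the median of the whole list the ratio was 0.985, so the direction turned there. With CpG-rich summits (an observed over expected CpG ratio of 0.6 or more in the 100 bp on either side of the summit) the ratio was 1.01 in the conservative list and 1.0006 ± 0.000659 over the libraries. With CpG-poor summits the medians were 12.6 for 138 bidirectional regions and 10.5 for 1911 other promoter regions. In the libraries these medians were 11.96 for bidirectional and 11.03 for other promoter regions in replicate 1, and 11.5 and 10.8 in replicate 2.

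Bidirectional regions were rarer at both ends of the range. In the lowest decile of promoter regions by signal stood 7.28% of bidirectional and 10.3% of other promoter regions, and in the highest decile 7.76% and 10.3%. In the libraries the share in the lowest decile was 8.07% ± 0.00331 of bidirectional and 10.3% ± 0.00245 of other promoter regions, and in the highest decile 7.83% ± 0.916 and 10.3% ± 0.125 (SD, n = 2). Both differences were larger than the spread between the libraries. Other promoter regions with a divergent noncoding start site also stood less often at the ends, with 8.46% in the lowest and 8.32% in the highest decile. Bidirectional regions were 76 of 950 promoter regions in the lowest decile and 81 of 950 in the highest, and their share was largest in the eighth, at 14.4%.

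**Figure D2:**
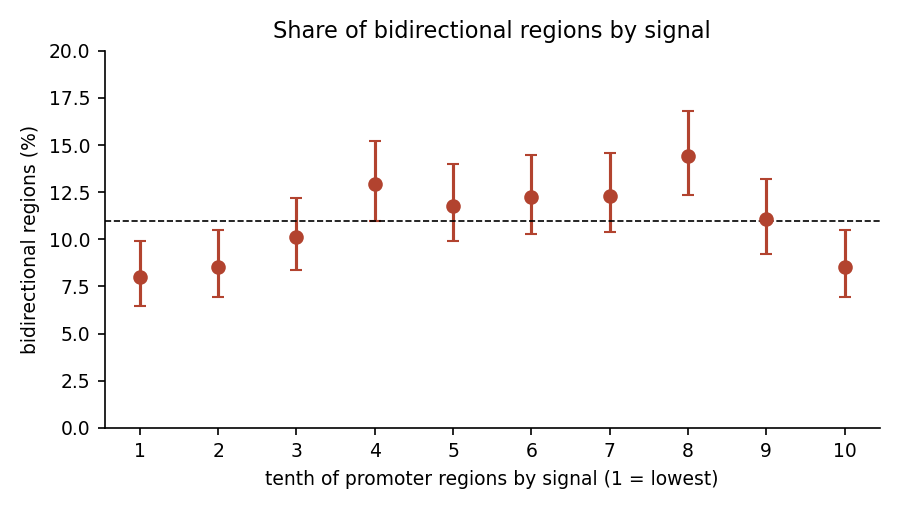
Share of bidirectional regions (y axis, percent) among promoter regions, in deciles ordered by the authors' signal in the conservative list (x axis, 1 the lowest). Points are shares, bars their 95% Wilson intervals, which cover counting error only, and the dashed line is the share of 10.99% over all promoter regions. The share is 8.53% in the second and in the last decile and 14.4% in the eighth.

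Among the 10 strongest members, the region at Tmem217/Tbc1d22b, where Tbc1d22b encodes a protein of the Rab GTPase-activating family, led with a signal of 28.0 at chr17:29549537-29549919. Its signal was 23.9 in replicate 1 and 23.3 in replicate 2. The region at Pld3/2310022A10Rik, where Pld3 encodes a nuclease of lysosomes, had 26.8 in the conservative list at chr7:27552806-27553425, and 24.3 and 24.2 in replicates 1 and 2. The median of bidirectional regions was 11.98 in replicate 1 and 12.2 in replicate 2. These regions were chosen as the strongest, so their place above it follows from the choice. The region at 6430550D23Rik/Ergic3, with a gene for transport between the endoplasmic reticulum and the Golgi, had 26.2, and that at Rnft2/2410131K14Rik, with a RING finger gene, had 25.9. Tctn3/Entpd1 had 25.6, where Tctn3 acts at the base of cilia and Entpd1 encodes an enzyme that breaks down extracellular ATP. The signal was 22.3 in replicate 1 and 22.0 in replicate 2 at that pair.

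Nsun6/Arl5b, with a transfer RNA methyltransferase gene and a gene for a small GTPase, had a signal of 24.6, with 19.7 in replicate 1 and 23.7 in replicate 2. Zfp169/A830005F24Rik, with a zinc finger gene, had 24.0. The region at Dusp12/Gm26620, with a phosphatase gene, had 23.5, and its summit lay 453.5 bp from the midpoint of the sites. Fam219a/Dnaic1, the second a gene for a dynein chain of motile cilia, had 23.4, and Armh1/Tmem53 had 23.3. All 10 regions were called in both libraries, against 87.9% of all bidirectional regions. So were all 186 bidirectional regions in the highest quintile of promoter regions by signal, so this goes with the choice of strong regions. None of them holds a gene of the erythroid or heme lists. Those lists have only 1 and 3 of all 1044 members, so their absence here tells nothing about the strongest regions.

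Calls in both libraries were more frequent for bidirectional regions. Of these, 918 of 1044 (87.9%, 85.8 to 89.8) were in the thresholded list of each library, against 6748 of 8453 other promoter regions (79.8%, 79.0 to 80.7), where 80.7% of all promoter regions were. Other promoter regions with a divergent noncoding start site lay between, with 585 of 697 (83.9%, 81.0 to 86.5) called in both. In neither library's list were 50 bidirectional regions (4.79%) and 772 other promoter regions (9.13%). The list of replicate 1 held 90.1% of bidirectional and 83.7% of other promoter regions, and that of replicate 2 held 93.0% and 86.96%. The difference was 6.40 percentage points in replicate 1 and 6.04 in replicate 2 (6.22 ± 0.252, SD, n = 2), larger than the spread between them. Designs with 2 libraries allow no exact test that can pass 0.05, so no p-value is given.

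The difference was largest in the second quintile of the signal. In the lowest quintile of promoter regions 41.4% (34.0 to 49.2) of bidirectional and 34.5% (32.3 to 36.7) of other promoter regions were called in both, and these intervals overlap. In the second quintile the shares were 88.6% (83.7 to 92.1) and 74.2% (72.1 to 76.3), and in the third 98.2% (95.6 to 99.3) and 93.7% (92.4 to 94.7). In the fourth they were 98.0% and 98.8%, and in the highest all 186 bidirectional and 1710 of 1714 other promoter regions were called in both. Above the median of the whole list the difference was 1.81 percentage points.

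Sequence composition moved with this result. With CpG-rich summits 89.1% of 906 bidirectional and 83.6% of 6542 other promoter regions were called in both libraries, and with CpG-poor summits 80.4% of 138 and 66.8% of 1911. Within CpG-rich and within CpG-poor summits the share was still higher for bidirectional regions. Other promoter regions with a divergent noncoding start site again lay between, with 85.8% of 598 CpG-rich and 72.7% of 99 CpG-poor summits. The authors' −log10 p had medians of 46.0 in replicate 1 and 52.0 in replicate 2 for bidirectional regions, against 37.6 and 42.2 for other promoter regions. For those with a divergent noncoding start site the medians were 42.7 and 48.9. The median signals of the same regions in the libraries' ranked lists were 11.98 and 12.2 for bidirectional regions and 11.3 and 11.7 for other promoter regions. Over the 1026 bidirectional regions found in both ranked lists, the signals of replicates 1 and 2 had a Spearman's rho of 0.918, which describes regions that share the libraries and are not independent.

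**Figure D3:**
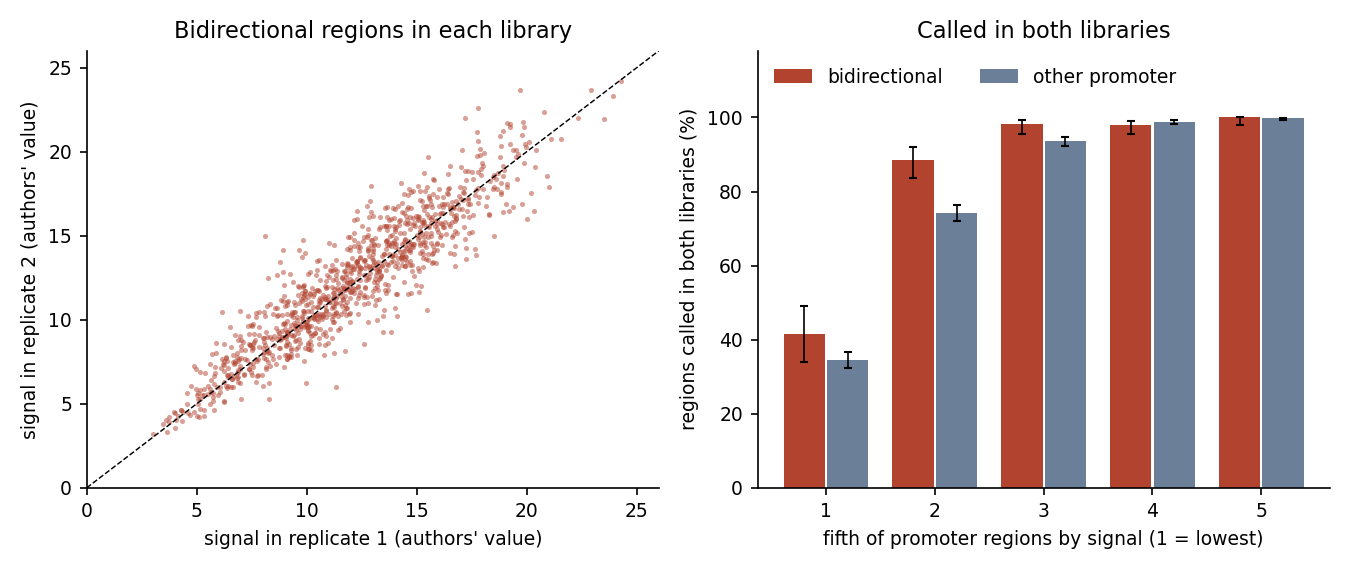
Left, the authors' signal of each bidirectional region in replicate 1 (x axis) and replicate 2 (y axis), each in its own ranked list, with the line of equality dashed. The lists may differ in scale. Right, the share of regions called in both libraries (y axis, percent) in quintiles of promoter regions by signal (x axis, 1 the lowest), for bidirectional and other promoter regions, with 95% Wilson intervals. The signals of the libraries rise together, and the bars differ most in the second quintile, at 88.6% and 74.2%.

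Genes that lie in divergent pairs had an open promoter more often than other genes. The annotation holds 1096 pairs with start sites at most 1 kb apart, with 2156 genes. A promoter region stood at 1893 of these (87.8%, 86.4 to 89.1) and at 7272 of 19697 other protein-coding genes (36.9%, 36.2 to 37.6), against 41.9% of all 21853 genes. In replicate 1 the shares were 84.6% and 33.4%, against 38.5% of all genes, and in replicate 2 they were 86.4% and 34.4%, against 39.6%. The difference was 51.6 ± 0.565 percentage points over the libraries (SD, n = 2). It is large against the spread between them.

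A summit beside either start site counts for both genes of a close pair, so genes of 1 pair are not separate observations. Counted by pair, 936 of 1096 pairs (85.4%, 83.2 to 87.4) had 1 region whose summit was within 1 kb of both sites, 9 had a region at 1 site only and 151 (13.8%) had none. In replicates 1 and 2 the share with a common region was 82.1% and 84.0%. Of the 151 pairs without a region, 37 had one in the authors' looser list of replicated peaks.

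CpG content differed between these gene groups as well. The CpG ratio around the gene's first start site had a median of 0.849 in genes of divergent pairs and 0.558 in other genes, and 81.2% and 47.4% were CpG-rich. Among CpG-rich genes a promoter region stood at 1615 of 1751 paired genes (92.2%) and at 5866 of 9330 other genes (62.9%). Among CpG-poor genes it stood at 278 of 405 (68.6%) and at 1406 of 10367 (13.6%). Over the libraries the difference was 31.4 ± 0.201 percentage points in CpG-rich and 54.7 ± 0.847 in CpG-poor genes (SD, n = 2), so it was present in both classes. The class is that of the gene's own first start site, while a region beside the partner's site counts for a paired gene too. The classes therefore do not hold the CpG content at the open region equal.

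Bidirectional regions held genes of some functions more often than those of others. Of all 21853 protein-coding genes, 8.57% stood in a bidirectional region, and 9.87% belong to an annotated divergent pair, an arrangement of the genome that does not depend on these cells. The shares of the lists lay at or somewhat below their own shares in annotated pairs, so they largely repeat that arrangement. Those were 72.2% for H2A and H2B histone genes, 40.7% for chaperones, 38.0% for DNA repair and 33.3% for mitochondrial ribosomal proteins. They were 33.0% for the respiratory chain, 16.1% for cytosolic ribosomal proteins and 2.22% for erythroid genes. Most of the lists are open far more often than the 41.9% of all genes, so the share among genes with a promoter region is given too, which was 20.4% (19.6 to 21.3) over all genes.

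Histone genes H2A and H2B, whose proteins form part of the nucleosome core, had the highest share of the 15 lists, with 25 of 36 genes (69.4%, 53.1 to 82.0) in 15 regions, or 78.1% (61.2 to 88.98) of those with a promoter region. All 15 regions were called in both libraries, against 87.9% of all bidirectional regions, and their signal had a median of 12.5 (range 9.55 to 16.8). At Hist1h2ah/Hist1h2bk the signal was 13.6 in replicate 1 and 15.6 in replicate 2. At Hist1h2ac/Hist1h2bc it was 12.9 in replicate 1 and 16.4 in replicate 2, and at Hist1h2bq/Hist1h2ao 14.3 and 13.8. Each of these values lay above the median of bidirectional regions in its library. These regions were named as among the strongest of the list, so this does not describe the list as a whole. In the conservative list the median of the histone regions, 12.5, lay below the 13.5 of all bidirectional regions. A CCAAT box lay within 100 bp of the summit in 15 of the 15 regions, against 40.6% of all bidirectional regions. An ETS site lay there in none of them, against 27.2% of all bidirectional regions. Their paired sites stood a median of 268 bp apart, and the summit lay between them in 14. Histone genes are near copies of each other, so the 15 regions may not be separate observations. No source used here tells how reads that match several copies were placed, so the split of signal between the copies is uncertain.

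Genes of DNA repair stood in bidirectional regions in 38 of 100 cases (38.0%, 29.1 to 47.8), and 97 of the 100 had a promoter region of any kind, of which 39.2% (30.1 to 49.1) were bidirectional. Their 41 regions had a median signal of 14.3 (range 3.78 to 22.7), and 39 of them were called in both libraries, against 87.9% of all bidirectional regions. Among the strongest was Mbd4/Ift122, with a glycosylase gene that acts on mismatched bases, at chr6:115852902-115853787. It had a signal of 19.9 in replicate 1 and 20.5 in replicate 2. Pinlyp/Xrcc1, with the scaffold gene of single-strand break repair, had 19.9 and 21.5, and Mospd2/Fancb, with a gene of the Fanconi anemia complex, had 20.4 and 19.1. These values too lay above the median of bidirectional regions in each library, but the regions were picked as among the strongest of the list. In the conservative list the median of the repair regions, 14.3, was slightly above the 13.5 of all bidirectional regions. The signals of the repair regions reached down to 3.78.

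Atm/Npat, which joins the kinase gene that answers double-strand breaks to an activator gene of histone transcription, had a signal of 16.6 in replicate 1 and 17.0 in replicate 2. Brca1/Nbr1 joins a gene of homologous recombination to an autophagy receptor gene, and it had 14.1 and 13.1. Mcm4/Prkdc joins a gene of the replicative helicase to the kinase gene of end joining, and it had 14.5 and 14.7. Each of these 3 regions was called in both libraries. Aimp2/Pms2, with a mismatch repair gene, had 13.8 in replicate 1 and 15.9 in replicate 2. The lowest signal, 3.78, belonged to an additional region at Zswim9/Lig1, which was in neither library's list.

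Mitochondrial functions also exceeded the level of all genes. Of genes for mitochondrial ribosomal proteins 25 of 78 (32.1%, 22.7 to 43.0) stood in a bidirectional region, and of genes for subunits and assembly factors of the respiratory chain 29 of 94 (30.9%, 22.4 to 40.8). The 29 regions of the respiratory chain list were all called in both libraries, and 24 of the 28 of the ribosomal list were, against 87.9% of all bidirectional regions. Among genes with a promoter region the shares in a bidirectional one were 32.5% (23.1 to 43.5) for the ribosomal and 34.5% (25.2 to 45.2) for the respiratory chain list. At Mrpl37/Cyb5rl the signal was 17.7 in replicate 1 and 21.2 in replicate 2. At Mrps12/Sars2, with genes for a ribosomal protein and a serine transfer RNA ligase of mitochondria, it was 16.8 and 16.2. Hspd1/Hspe1, the pair for the mitochondrial chaperonin and its lid, had 11.96 and 11.3.

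The other lists of general functions lay at 14.9% or more. Genes of chaperones reached 9 of 27 (33.3%, 18.6 to 52.2), of DNA replication 13 of 53 (24.5%, 14.9 to 37.6), and of transfer RNA synthetases 9 of 37 (24.3%, 13.4 to 40.1). Genes of Sm, Lsm and SF3 splicing proteins reached 8 of 34 (23.5%, 12.4 to 39.996) and those of the proteasome 11 of 50 (22.0%, 12.8 to 35.2). Genes of cytosolic ribosomal proteins reached 13 of 87 (14.9%, 8.95 to 23.9), for which the lower bound lies just above the 8.57% of all genes. Among genes with a promoter region, chaperones stood at 40.9% (23.3 to 61.3), above the 20.4% of all such genes. The intervals of the other lists included that level, with 25% (15.2 to 38.2) for replication, 25% (13.8 to 41.1) for synthetases, 25% (13.3 to 42.1) for splicing, 24.4% (14.2 to 38.7) for the proteasome and 16.9% (10.1 to 26.8) for cytosolic ribosomal proteins. Rpl15/Nkiras1, for example, had a signal of 18.6 in replicate 1 and 17.8 in replicate 2.

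Of 45 erythroid genes, 40 had a promoter region and 1 stood in a bidirectional one (2.22%, 0.393 to 11.6), an interval that includes the 8.57% of all genes. That gene was Slc11a2, an iron transporter, paired with Gm5475, with a signal of 14.0 in replicate 1 and 15.4 in replicate 2. Of 22 genes of heme synthesis, transport and breakdown, 19 had a promoter region and 3 stood in a bidirectional one (13.6%, 4.75 to 33.3), which also includes the level of all genes. Among genes with a promoter region the erythroid share was 2.5% (0.443 to 12.9), below the 20.4% of all such genes, and the heme share was 15.8% (5.52 to 37.6), an interval that includes it.

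The heme genes were Urod and Uros, whose enzymes act in the middle of heme synthesis, and Blvrb, a biliverdin reductase gene. At Urod/Hectd3, with start sites 904 bp apart, the signal was 10.4 in replicate 1 and 12.6 in replicate 2, and the summit lay between the sites. At Uros/Bccip, with sites 52 bp apart, it was 10.95 and 8.62, and at Sptbn4/Blvrb, with sites 292 bp apart, 9.47 and 9.67. Of these values, that of Urod/Hectd3 in replicate 2 lay above the median of bidirectional regions in its library and the others lay below. All 3 had a signal below the median of bidirectional regions, at 12.9, 10.8 and 9.50 in the conservative list.

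Of 42 genes used in other tissues, 4 had a promoter region and 0 stood in a bidirectional one. Of 1134 olfactory receptor genes, 2 had a promoter region and 0 stood in a bidirectional one. In both lists 0 genes belong to an annotated divergent pair. Their absence from bidirectional regions was thus largely given by the annotation and tells nothing about these cells. Zinc finger genes of the Zfp family stood in one in 24 of 394 cases (6.09%, 4.13 to 8.90), which includes the level of all genes. Of the 267 with a promoter region the share was 8.99% (6.11 to 13.0), below the 20.4% of all such genes.

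**Figure D4:**
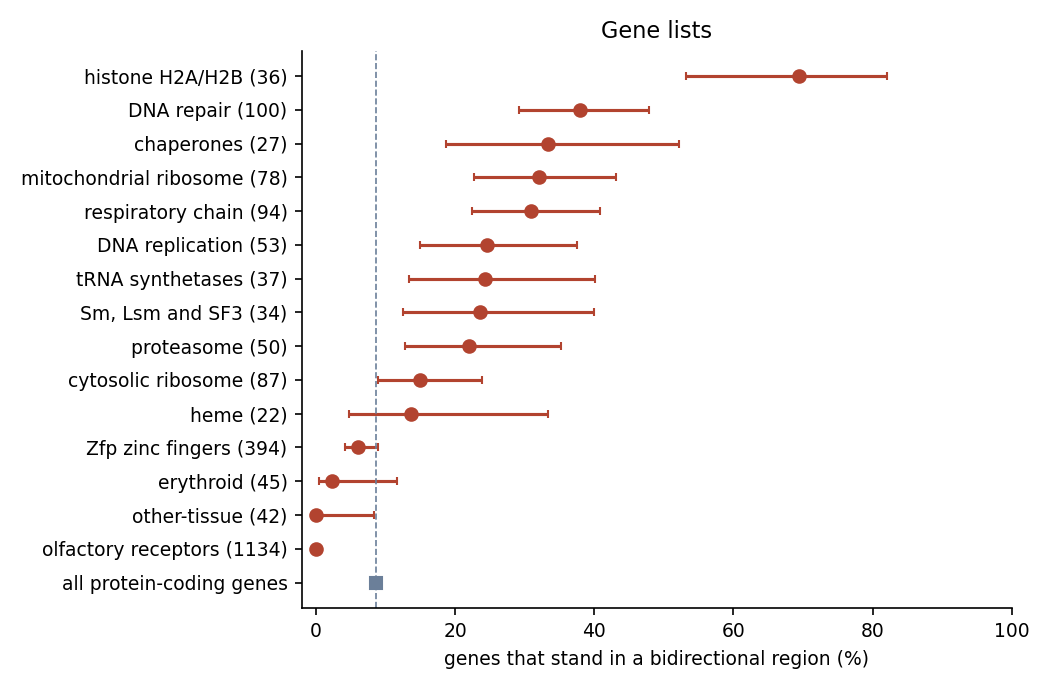
Share of the genes of each list that stood in a bidirectional region (x axis, percent), with the number of genes of the list in brackets. Points are shares and bars 95% Wilson intervals, and the square and dashed line mark the 8.57% of all protein-coding genes. Histone H2A and H2B genes lie highest at 69.4%, and the erythroid list lies at 2.22%.

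Well-known divergent pairs were looked up by name. Of 22 pairs written from general knowledge, 11 were bidirectional members, 4 were divergent with sites farther than 1 kb apart in the annotation, and 7 were not divergent there. The members were Hspd1/Hspe1, Brca1/Nbr1, Atm/Npat, Gart/Son, Mcm4/Prkdc, Urod/Hectd3, Uros/Bccip, Mrps12/Sars2, Surf1/Surf2, Psmb1/Tbp and Wrap53/Trp53. Gart/Son, a purine synthesis gene and a splicing gene, had 2 regions, with signals of 13.7 and 9.30 in the conservative list. Surf1/Surf2, with a gene for assembly of cytochrome oxidase, had a low signal, with 6.22 in replicate 1 and 8.58 in replicate 2. The region at Wrap53/Trp53, where Trp53 encodes the tumour suppressor p53, had 5.73 and 5.16 and passed the threshold in neither library.

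CpG dinucleotides were slightly denser at bidirectional summits. The CpG ratio around the summit had a median of 0.839 in bidirectional regions and 0.797 in other promoter regions, and 86.8% and 77.4% were CpG-rich. The difference of medians was 0.0563 in replicate 1 and 0.0485 in replicate 2 (0.0524 ± 0.00551, SD, n = 2). The GC content did not follow, with medians of 63.2% and 63.7%. Other promoter regions with a divergent noncoding start site had a CpG ratio of 0.846, so the ratio was not higher in bidirectional regions than there.

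Of the 15 binding motifs searched in the same windows, that of ETS factors differed most. The summits lay a median of 38 bp from the nearest start site in bidirectional and 69 bp in other promoter regions. The windows are thus placed differently around start sites, and the part of this in the CpG ratio and motif shares was not tested. The ETS core CCGGAAG was present in 284 bidirectional regions (27.2%, 24.6 to 29.98) and in 1548 other promoter regions (18.3%, 17.5 to 19.1). The difference of 8.89 percentage points was 7.79 in replicate 1 and 7.97 in replicate 2 (7.88 ± 0.125, SD, n = 2). It was 7.98 among CpG-rich summits, and regions with a divergent noncoding start site had 22.2%. ETS factors act at many promoters of general functions, and some of them at blood cell genes.

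The CCAAT box of NF-Y was present in 40.6% (37.7 to 43.6) of bidirectional and 36.6% (35.6 to 37.7) of other promoter regions. The difference was 3.99 percentage points in the conservative list and 2.61 ± 0.0534 over the libraries (SD, n = 2), and it was 0.726 when overlapping rows were not merged. The ZNF143 core ACTACAANT was present in 56 bidirectional regions (5.36%, 4.15 to 6.90) and 2.92% (2.58 to 3.30) of other promoter regions, with a difference of 2.26 ± 0.0915 over the libraries. The NRF1 core GCGCANGCG was present in 13.6% (11.7 to 15.8) and 11.01% (10.4 to 11.7), intervals that just overlap. Each of these differences over the libraries was larger than the SD between them.

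Fewer bidirectional regions held the KLF, GATA, RUNX and AP-1 motifs, of which the first 3 are bound by factors that act in blood cells. The KLF core CCACNCCC was present in 16.1% (14.0 to 18.4) of bidirectional and 19.7% (18.9 to 20.6) of other promoter regions, with a difference of -3.88 ± 0.267 percentage points over the libraries. The GATA core AGATAA was present in 25 bidirectional regions (2.39%, 1.63 to 3.51) and 372 other promoter regions (4.40%, 3.98 to 4.86), with a difference of -1.54 ± 0.0113. Among CpG-rich summits the GATA shares were 1.77% and 1.99%, so the difference was -0.221 there. The AP-1 core TGANTCA gave 1.72% (1.09 to 2.71) and 3.08% (2.73 to 3.47), and the RUNX core TGTGGTT 1.44% (0.873 to 2.36) and 2.41% (2.11 to 2.76). For the last of these the intervals overlap. Among CpG-rich summits the AP-1 shares were 1.66% and 2.14%, a difference of -0.484. Other promoter regions with a divergent noncoding start site held the KLF core in 22.2%, GATA in 3.01%, RUNX in 1.58% and AP-1 in 2.30%. The RUNX share there was close to that of bidirectional regions, and GATA and AP-1 lay between the groups. The KLF share there was above that of all other promoter regions.

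For the remaining motifs the counting intervals of the groups overlapped. The GC box GGGCGG gave 61.9% of bidirectional and 61.6% of other promoter regions, and among CpG-rich summits 64.5% and 68.5%, a difference of -4.05 percentage points. The TATA box TATAAA gave 2.30% and 2.31%. The shares were 2.11% and 1.57% for the BANP palindrome CTCGCGAG, 4.598% and 3.63% for the cyclic AMP element TGACGTCA, whose difference over the libraries was 0.913 ± 0.0598 (SD, n = 2), and 8.05% and 9.09% for the E-box CACGTG. They were 5.56% and 4.94% for the YY1 core AANATGGCG and 7.47% and 6.07% for the E2F core TTCCCGC. None of the 15 motifs was present in 56 bidirectional regions (5.36%) and 655 other promoter regions (7.75%).

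**Figure D5:**
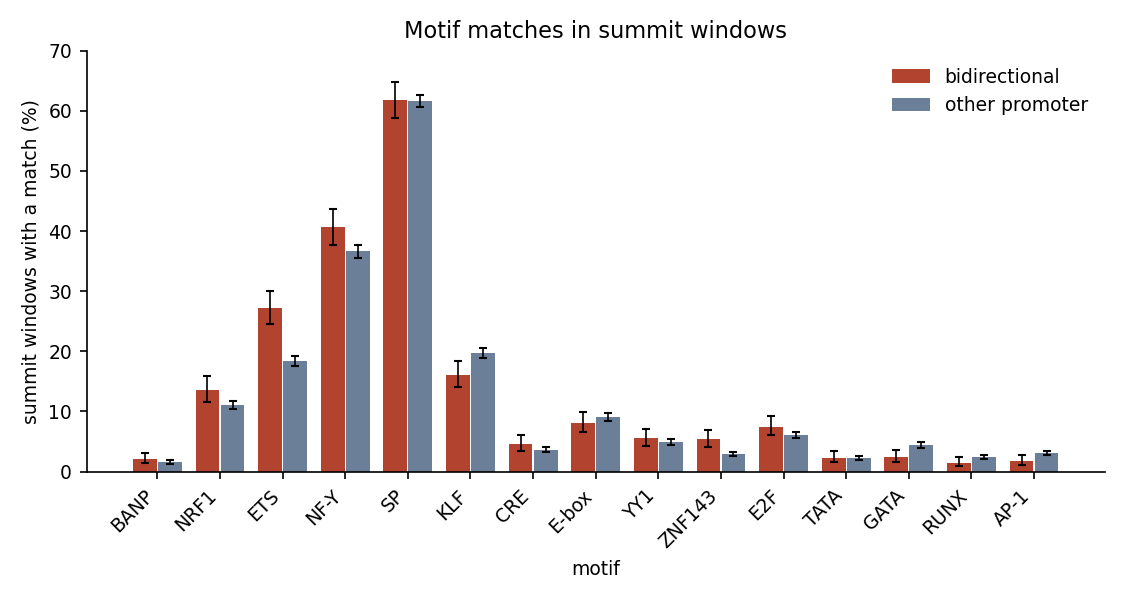
Share of summit windows, 100 bp to either side, with a match to each motif on either strand (y axis, percent) for bidirectional and other promoter regions, with 95% Wilson intervals that cover counting error only. The bars differ most for ETS, at 27.2% and 18.3%, and for the SP motif they stand at 61.9% and 61.6%, with the direction turned among CpG-rich summits.

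Counted by distance along the DNA instead of by summit window, the order of some motifs changed, but the stretches compared differ in length. Between the paired start sites of 933 distinct site pairs there were 3.76 CCAAT boxes per kb, against 3.28 per kb in the 100 bp upstream of the nearest start site of other promoter regions. GC boxes had 5.45 per kb between paired sites and 8.22 per kb upstream of other sites. ETS cores had 1.01 and 1.16 per kb. The first value covers whole stretches of any length and the second only 100 bp, so the 2 are not like for like. In bidirectional regions ETS cores had 2.22 per kb in the 25 bp left of the summit. At 125 to 150 bp to its right they had 0.460 per kb, and at 275 to 300 bp 0.690 per kb. These values are by distance from the summit, and the part of stretch length in the density between sites was not tested. In the 100 bp downstream of the start sites ETS cores had 1.03 per kb in bidirectional pairs and 0.901 per kb at other sites. Matches cut off at the ends of a short stretch are lost, which lowers the density between sites that lie close together.

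In the 100 bp downstream of a start site the YY1 core read in the direction of the gene in 63 of 77 cases (81.8%) in bidirectional pairs and in 363 of 458 (79.3%) at other sites. For the GC box these shares were 65.2% and 62.9%, for the KLF core 27.4% and 30.6%, and for the CCAAT box 38.0% and 38.7%. For RUNX, with few matches, they were 88.2% (15 of 17) and 67.2% (39 of 58).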

How the data were processed

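The data were ATAC-seq peak lists from 2 libraries of 1 group, on mm10 per the labels. The notes the authors deposited name lists thresholded by irreproducible discovery rate (IDR), for each library alone and for both together, one of them the conservative list. The signal (its scale is unknown here) and the −log10 p of each peak are the values the authors deposited. Aligner, peak caller, shifts of read ends and versions: not given in the sources used here.

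Overlapping rows of the conservative list (29337 rows) were merged and represented by the strongest summit. Start sites were those of protein-coding transcripts in GENCODE M21 on GRCm38, and sequence came from the RefSeq copy of that build. Per-library values come from each library's own thresholded list, and the signal and −log10 p of a member from its ranked list, by an overlap of at least 50% of the shorter region. Signals were compared only within a list. Shares have 95% Wilson intervals, which cover counting error only, and SDs are over the 2 libraries. Regions and genes are not replicates, so no p-value was computed.

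Members and the 15 gene lists, 15 motifs and 22 pairs were chosen with earlier results of these data known. Motifs and the CpG ratio (0.6 or more: CpG-rich) used 100 bp on either side of the summit, both strands. Named are the 10 strongest members, the 4 strongest of each list (all for heme, erythroid and DNA repair, of which examples are printed), the listed pairs, the 3 smallest and 3 largest distances, and the regions at the 1 kb limit; a few of these are not reported here. The pattern for cytosolic ribosomal genes was narrowed after its first result, to leave out kinases and a binding protein with like symbols. Alternatives were other lists, windows, start sites, orientation, merging, overlap and distance. Scripts were tested on simulated regions. Tools were Python 3.11.15, numpy 2.4.6, pandas 2.3.3, scipy 1.17.1, pysam 0.24.0 and samtools 1.23.1.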

Additional observations from a re-analysis of the deposited data

How the results depend on the processing

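No paired analysis was possible because both libraries belong to 1 group, so no groups of samples share replicate numbers; differences between kinds of region were taken within each library. The reference for a move was the SD of the 2 libraries, which is small. With regions above the median signal the signal ratio turned to 0.985, the bidirectional share of promoter regions was 12.01%, the share of summits between the sites 58.1%, the difference in calls in both libraries 1.81 percentage points, that in genes with a promoter region 44.1 and that in CpG ratio 0.0265. With the authors' other IDR-thresholded list from both libraries the ratio was 1.05, the share 10.9% and the difference in calls 9.24. With summits within 500 bp the ratio was 1.05, the share 9.95%, summits between the sites 57.0%, the difference in calls 9.52 and in genes 49.3. With the 5′ end of each gene the share was 8.98%, summits between the sites 56.2%, the difference in calls 7.46 and in genes 52.1. With overlapping head-to-head pairs the share was 12.3%, the ratio 1.03, summits between the sites 45.5%, the differences 7.30 (calls), 49.2 (genes) and 0.0476 (CpG). Without merging there were 1979 members, a share of 12.4%, a ratio of 1.02 and 34.1% of summits between the sites. Pairs up to 500 bp and up to 2 kb apart gave a difference in genes of 51.9 and 46.8. With 1 library left out, members numbered 967 to 1016, the share was 11.7 to 11.8%, the ratio 1.01 to 1.02, summits between the sites 50.7 to 51.5%, the difference in genes 51.2 to 52.0 and in CpG ratio 0.0485 to 0.0563. Of 15 motif differences, 13 kept their direction under all 9 alternatives run, while the GC box kept it in 2 and the TATA box in 5. The ETS difference ranged from 5.23 to 10.9 and that of NF-Y from 0.726, without merging, to 5.67. The causes were not tested. Unknown read depth limits statements on weak regions, and an absent region is not a closed promoter.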
